A study of Mus musculus with 12 samples.

Results

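The 9 genes described here are positive components and delayed or opposite-phase components of the circadian clock: Arntl, Clock, Npas2, Cry1, Cry2, Nfil3, Rora, Bhlhe40 and Bhlhe41. They were chosen by name, from textbook knowledge of the clock, but with earlier results of these data known. They were found on the arrays through the RefSeq accession of each probe. All 9 were among the 23614 genes tested, with 16 probes between them, of which 14 passed the filter on dim probes described in the methods.

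RNA was taken from scraped colon mucosa of 12 mice, 1 colon and 1 array per mouse, with 3 mice in each of 4 groups. All recipients were wild-type C57BL/6 mice. They carried C57BL/6 marrow from wild-type donors (WT marrow) or from Muc1 knockout donors (KO marrow), so that the recipient's own epithelium and stroma kept Muc1. WT_untreated and KO_untreated mice received neither agent. WT_AOMDSS and KO_AOMDSS mice were injected with the colon carcinogen azoxymethane (AOM, 12.5 mg/kg, into the peritoneum). Starting 5 days later they drank dextran sodium sulfate (DSS), which injures the colon lining, at 2% for 4 days and then water for 14 days. That cycle was given again, 2.5% DSS followed for 5 days, and tissue was taken 1 day after. The hour of the day at which tissue was taken is not given in the labels, and each mouse contributed a single time.

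In the mammalian clock, the proteins of Arntl (BMAL1) and of Clock or its relative Npas2 bind DNA as a pair at E-box elements and switch on the Per and Cry repressors, the nuclear receptors Nr1d1 and Nr1d2, and output factors such as Dbp and Tef. The PER and CRY proteins then shut off the pair, and NR1D1 and NR1D2 repress Arntl, Npas2, Cry1 and Nfil3 at elements that RORA and its relatives use for activation. Transcripts of Arntl and Npas2 therefore peak when those of Nr1d1 and Dbp are low, and NFIL3 represses the D-box genes that DBP and TEF activate. Colon epithelium and immune cells carry such clocks, as do most nucleated cells.

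The regulatory elements that give these genes their place in the cycle are short, and the promoters of 8 of the 9 genes, 11 start sites in all, were read from RefSeq (GRCm38.p6), each from 250 bases before to 50 bases after the start. Bhlhe40 is named only. The letters searched, on both strands, were CACGTG (E-box), TAGGTCA or TGGGTCA (the core of the ROR element) and TTATGNAA (D-box). The motifs do not overlap in the matches found. An E-box lay in 2 of the 11 promoters, a ROR core in 2 and a D-box in 0. Of all 32851 mouse promoters of the same length, 7.15% held the E-box letters, 6.45% the ROR core and 3.38% the D-box. The sequences below are shown because they belong to the genes with a probe that passed a treatment test (Arntl, Nfil3, Cry1 and Cry2) or to a gene with a match. They run 5′ to 3′ on the gene's strand, with the match in capitals.
Arntl, second start site, chr7:113207530-113207559, plus strand, ROR core 31 to 37 bases after the start: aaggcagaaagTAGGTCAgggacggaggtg
Nfil3, 100 bases before the start, chr13:52981040-52981139, minus strand, ROR core on the opposite strand at -12 to -6: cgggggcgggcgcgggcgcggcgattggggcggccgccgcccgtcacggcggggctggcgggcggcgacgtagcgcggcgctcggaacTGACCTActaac
Cry1, 100 bases before the start, chr10:85185055-85185154, minus strand, E-box at -60 to -55: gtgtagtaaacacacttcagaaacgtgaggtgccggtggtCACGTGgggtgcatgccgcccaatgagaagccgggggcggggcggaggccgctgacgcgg
Bhlhe41, chr6:145865556-145865585, minus strand, E-box at -153 to -148: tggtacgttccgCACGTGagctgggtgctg
Cry2, 100 bases before the start, chr2:92434070-92434169, minus strand, no match in its 300-base window: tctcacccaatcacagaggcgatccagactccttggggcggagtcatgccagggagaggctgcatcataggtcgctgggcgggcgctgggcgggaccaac

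Levels are log2 signals relative to the 75th percentile of their own array, so 0 is a bright probe and negative values are dimmer. Differences are on the same log2 scale, ± SE, from a limma fit to all 12 arrays and all 23614 genes, with p-values adjusted by the Benjamini-Hochberg method over all genes and a threshold of 0.05. Levels of different probes are not comparable with each other.

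The 75th percentile itself was 332 to 767.8 signal units on 11 arrays and 153.2 on the third WT_AOMDSS array, the dimmest. The arrays lay on 3 slides. Slide 1 held the 3 WT_untreated mice and the first KO_untreated mouse, slide 2 the other KO_untreated mice and the third mouse of each treated group, and slide 3 the other 4 treated mice. Slide and treatment were therefore partly the same split, and values with slide as a block are given for each of the 9 genes. Slide 3 was scanned on an earlier day than slides 1 and 2. Scan day as a block thus sets slide 3 against the other slides and is not a batch check separate from slide. Epithelial markers (8 of 8 measured) averaged 5.96 to 6.6 on the 12 arrays, as fits colon mucosa, and 0 of them changed with treatment. The brighter Muc1 probe did not separate the marrows, running from -2.25 to -1.5 in WT_untreated and from -3.80 to -2.12 in KO_untreated mice. The second Muc1 probe did separate them in untreated mice, and was higher with KO marrow (-3.96 to -3.23, against -6.01 to -4.06 in WT_untreated). In treated mice the marrows overlapped on both probes.

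Among the 9 genes, Arntl rose and Cry2 fell with AOM and DSS in mice with WT marrow, Cry2 fell in mice with KO marrow, and both were called in the mean of the 2 marrows. With WT marrow 1 of 9 rose (3.57% of all genes rose) and 1 fell (10.1% of all genes fell). With KO marrow 0 of 9 rose, against 1.85% of all genes, and 1 fell, against 1.3%. In the mean over both marrows 1 rose, against 7.52%, and 1 fell, against 13.4%. The median change of the 9 genes was 0.32 with WT marrow and 0.32 with KO marrow, while the medians over all genes were -0.244 and -0.113. The set did not move as a block, since Cry2 went the opposite way to Arntl.

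**Figure D1:**
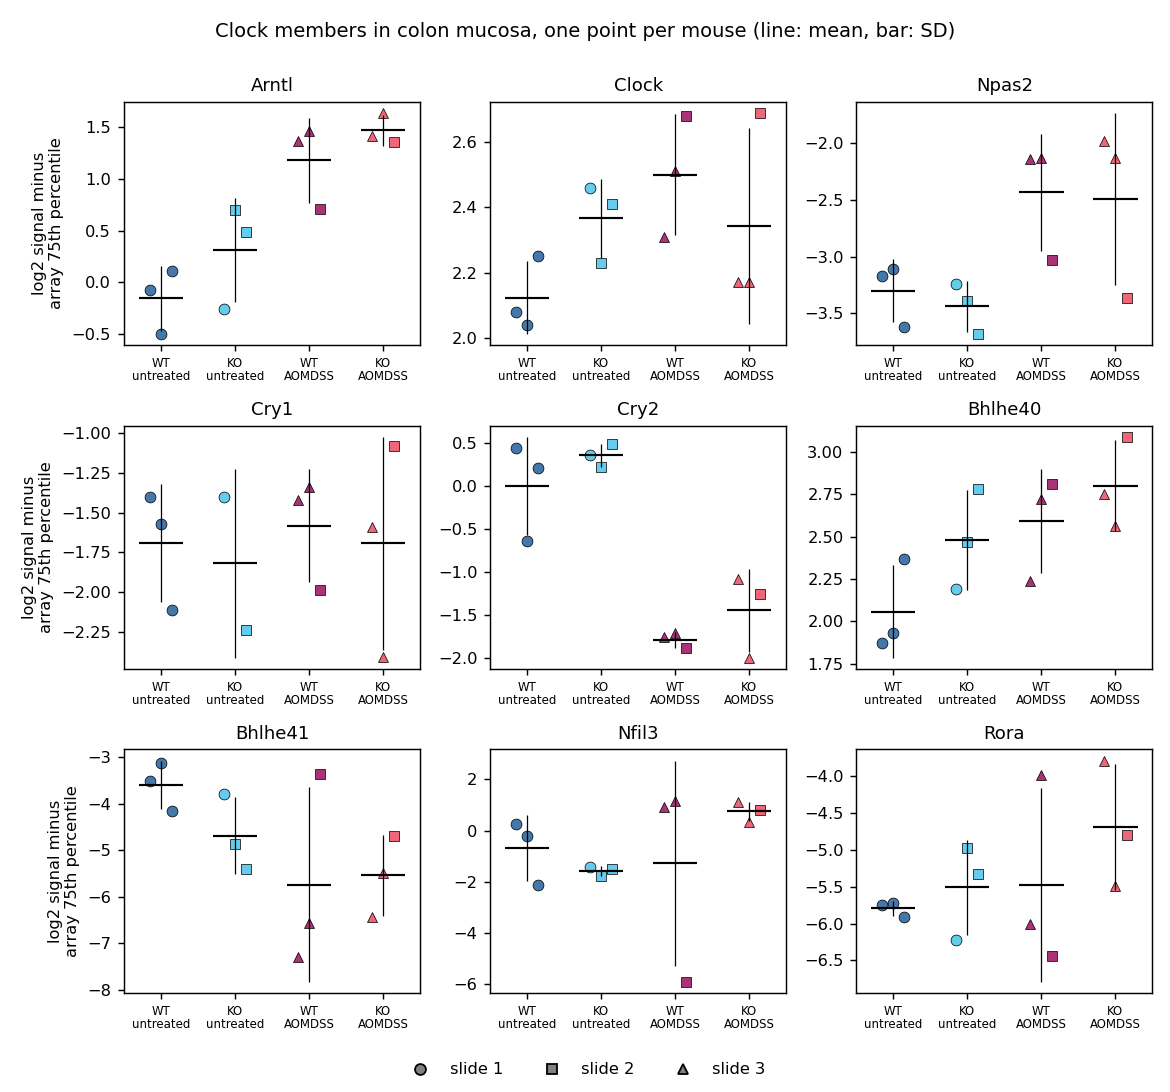
Level of each of the 9 genes (log2 signal minus the array's 75th percentile, y axis; scales differ between panels) by group, 1 point per mouse, with the group mean (line), SD (bar) and slide (symbol). The 6 treated mice lie above the 6 untreated mice for Arntl and below them for Cry2, while the other 7 genes overlap between treated and untreated mice when the marrows are pooled.

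Arntl, the obligatory partner in the activating pair, is on chromosome 7 and had 1 probe, well above background on 12 arrays. Its level was -0.08, -0.50 and 0.11 in the 3 WT_untreated mice and 1.37, 1.46 and 0.71 in the 3 WT_AOMDSS mice. In KO_untreated mice it was -0.26, 0.70 and 0.49, and in KO_AOMDSS mice 1.41, 1.64 and 1.36. The highest untreated mouse (KO_untreated, 0.70) and the lowest treated mouse (WT_AOMDSS, 0.71) nearly met, and both were on slide 2.

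Arntl was 2.53-fold higher after treatment with WT marrow (1.34 ± 0.31, limma adjusted p = 0.0213). With KO marrow the difference was 1.16 ± 0.31 (2.24-fold), which missed the threshold (adjusted p = 0.066) although the 3 treated mice lay above the 3 untreated mice. Over both marrows it was 1.25 ± 0.22 (2.38-fold, adjusted p = 0.00284). The call with WT marrow was lost without the first or second WT_untreated mouse (adjusted p = 0.074 and 0.0917) or without the first or second WT_AOMDSS mouse (0.0831 and 0.0631). Without the dimmest array (the third WT_AOMDSS mouse), Arntl passed with KO marrow too (1.16, adjusted p = 0.027).

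The rise of Arntl depended on how slides were treated. With slide as a block it was 0.19 with WT marrow (adjusted p = 0.842), 0.59 with KO marrow (0.227) and 0.39 in the mean (0.445). All genes shifted under that block as well, by a median of 0.47, 0.444 and 0.457, so Arntl relative to all genes was -0.28, 0.15 and -0.07, against 1.58, 1.27 and 1.44 without the block. Slide 2 alone held both treated and untreated mice. There the treated levels were 0.71 and 1.36, the untreated levels 0.70 and 0.49, and the difference with KO marrow was 0.76 (adjusted p = 0.192). With scan day as the block, the difference was 1.05 with WT marrow (adjusted p = 0.0669, no longer called), 0.87 with KO marrow (0.154) and 0.96 in the mean (0.0358). With normexp background correction it was 0.90 (0.153, no longer called), 0.96 (0.227) and 0.93 (0.0173).

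The group order of Arntl, from low to high, was WT_untreated (-0.16 ± 0.31 SD, n = 3), KO_untreated (0.31 ± 0.50), WT_AOMDSS (1.18 ± 0.41) and KO_AOMDSS (1.47 ± 0.15). The first pair of neighbours differed by 0.47 ± 0.31 (limma adjusted p = 0.508) and the last by 0.29 ± 0.31 (adjusted p = 1), neither past the threshold. KO_untreated and WT_AOMDSS differ in both marrow and treatment and were not compared.

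Clock, the usual partner of BMAL1, had 3 probes. Its brightest read 2.08, 2.04 and 2.25 in WT_untreated and 2.31, 2.51 and 2.68 in WT_AOMDSS mice, so the groups did not overlap, yet the difference of 0.37 ± 0.22 did not pass the test (adjusted p = 0.252). In KO_untreated mice it read 2.46, 2.23 and 2.41, and in KO_AOMDSS mice 2.17, 2.17 and 2.69, a difference of -0.03 ± 0.22. The 95% intervals, -0.10 to 0.85 and -0.50 to 0.45, leave out a 2-fold change in either direction in that fit. Fitted with slide as a block, the differences were 0.78 (adjusted p = 0.281) and 0.29 (0.429). The other probes of Clock gave 0.24 ± 0.26 and -0.02 ± 0.50 with WT marrow, and -0.03 ± 0.26 and -0.12 ± 0.50 with KO marrow. In the fit without a block, Arntl and Clock, the partners of the pair, thus had unlike treatment differences, though the difference between them was not tested. With slide as a block Arntl was at 0.19 with WT marrow and 0.59 with KO marrow, against 0.78 and 0.29 for Clock. Their order with WT marrow was therefore the reverse.

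Npas2, which can take the place of Clock, was dim but well above background on 12 arrays. The 4 treated mice on slide 3 were at -2.14, -2.13, -1.98 and -2.13. The treated mice on slide 2 were at -3.03 (WT_AOMDSS) and -3.36 (KO_AOMDSS), inside or next to the untreated range of -3.68 to -3.11. The treatment difference was 0.87 ± 0.46 with WT marrow (adjusted p = 0.207), where the groups did not overlap, and 0.95 ± 0.46 with KO marrow (adjusted p = 0.379), where they did. The mean over both was 0.91 ± 0.33 (adjusted p = 0.063), and it passed when either treated mouse of slide 2 was left out (1.05, adjusted p = 0.0193, without the WT_AOMDSS mouse; 1.12, 0.0262, without the KO_AOMDSS mouse). Within slide 2 the difference with KO marrow was 0.17 (adjusted p = 0.832), and with slide as a block the mean was 0.37 (0.596). The higher Npas2 values and slide 3 cannot be told apart with these arrays.

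**Figure D2:**
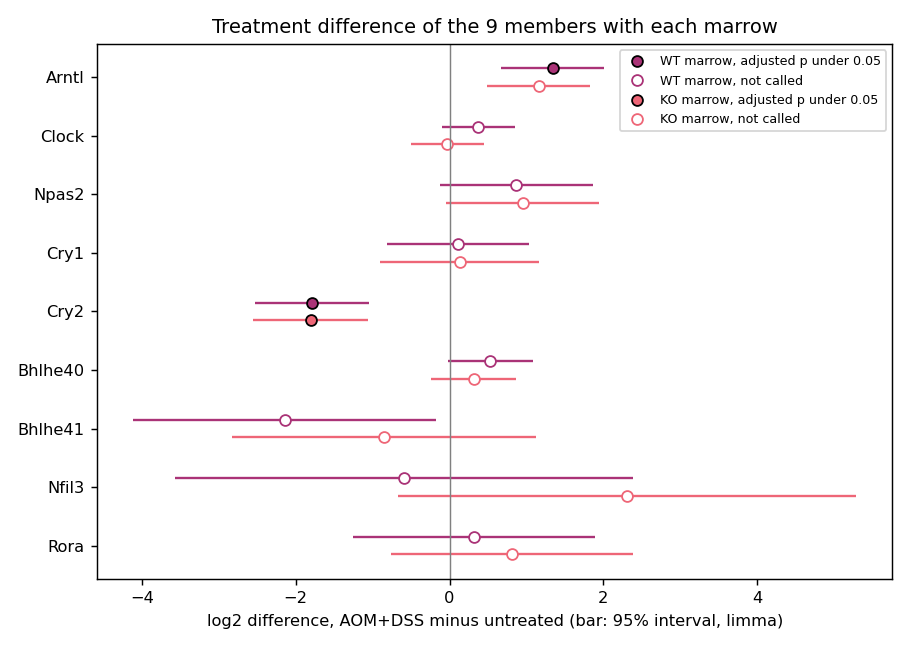
Treatment difference (AOM and DSS minus untreated, log2, x axis) of each of the 9 genes with WT marrow and with KO marrow, with the 95% interval of the limma fit (bars); filled points passed the threshold of 0.05 on the adjusted p. Cry2 is filled with both marrows at -1.79 and -1.80, and Arntl is filled with WT marrow alone.

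Cry2, one of the CRY repressors that close the loop, is on chromosome 2 and was called with both marrows on its brighter probe. Its brighter probe was at 0.45, -0.64 and 0.21 in WT_untreated and at 0.37, 0.22 and 0.49 in KO_untreated mice. After treatment it was at -1.76, -1.71 and -1.89 with WT marrow and at -1.08, -2.00 and -1.26 with KO marrow. The lowest untreated mouse thus stood above the highest treated mouse, and on slide 2 alone the treated mice were at -1.89 and -1.26 against 0.22 and 0.49.

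Cry2 fell 3.46-fold with WT marrow (-1.79 ± 0.34, limma adjusted p = 0.0109) and 3.49-fold with KO marrow (-1.80 ± 0.34, adjusted p = 0.0124). The mean over both was -1.80 ± 0.24 (3.48-fold lower, adjusted p = 0.000494). With slide as a block the sizes were -1.74, -1.76 and -1.75, with adjusted p = 0.217, 0.0398 and 0.0532, and within slide 2 the difference with KO marrow was -1.62 (0.0989). The size of the difference was therefore nearly the same with and without slide in the fit, while 2 of those 3 calls were lost. With normexp background correction the difference was -0.45 with WT marrow (0.396) and -1.28 with KO marrow (0.069), both no longer called, and -0.86 in the mean (0.0343). Leaving out the first WT_untreated mouse took the WT-marrow call away (-1.57, adjusted p = 0.0593). Leaving out the third KO_untreated or the second KO_AOMDSS mouse took the KO-marrow call away (adjusted p = 0.0768 and 0.0522).

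A second Cry2 probe did not show the fall. It was dim, with untreated levels of -4.68 to -3.75. Its treated levels were -6.52, -6.18 and -3.97 with WT marrow and -1.09, -5.84 and -5.07 with KO marrow. The mouse at -1.09 lies far above the other treated mice, and the difference was -1.05 ± 1.03 with WT marrow (adjusted p = 0.515) and 0.05 ± 1.03 with KO marrow (0.99). With the mean of both probes Cry2 was not called (-1.42, adjusted p = 0.124, with WT marrow; -0.88, 0.578, with KO marrow; -1.15, 0.0717, in the mean). The fall of Cry2 thus rests on the brighter probe.

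Cry1, the other CRY repressor, whose transcript normally trails that of Cry2 because of its ROR elements, gave different answers on its probes. On the brighter probe the 12 arrays spread from -2.41 to -1.08, with 1 missing value in KO_untreated, and the treatment difference was 0.11 ± 0.43 with WT marrow (adjusted p = 0.877) and 0.13 ± 0.48 with KO marrow (0.939). Both differences were larger with slide as a block, at 1.05 (0.522) and 0.65 (0.455), and still not called. On the other probe, also well above background on 12 arrays, the level was -3.04, -3.60 and -3.68 in WT_untreated and -1.39, -1.59 and -2.85 in WT_AOMDSS mice. KO_untreated mice were at -3.29, -3.15 and -2.91, and KO_AOMDSS mice at -1.26, -1.67 and -1.93. On this probe the 6 treated mice lay above the 6 untreated mice.

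The second Cry1 probe was higher after treatment by 1.5 ± 0.42 with WT marrow (limma over all kept probes, adjusted p = 0.0409), by 1.5 ± 0.42 with KO marrow (0.0896) and by 1.5 ± 0.30 in the mean (0.00646). With slide as a block the mean was 0.71 (0.316), and within slide 2 the difference with KO marrow was 1.10 (0.158). Which probe follows the Cry1 transcript was not tested, so no direction is given for the gene.

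Nfil3, the bZIP repressor that opposes DBP and TEF at D-box elements, also had probes that disagreed, because of a single array. On the brighter probe, WT_untreated mice were at 0.27, -0.20 and -2.14 and WT_AOMDSS mice at 0.90, 1.17 and -5.90. KO_untreated mice were at -1.42, -1.78 and -1.49 and KO_AOMDSS mice at 1.10, 0.35 and 0.79. The -5.90 came from the dimmest array, where this probe was not well above background. With it the difference with WT marrow was -0.59 ± 1.38 (adjusted p = 0.795), and without that array it was 1.72 (adjusted p = 0.0286). With KO marrow it was 2.31 ± 1.38 (adjusted p = 0.503), and 0.0155 was its adjusted p without that array, since the fit shares 1 spread over the groups. When that array was kept and slide was a block, this probe gave -2.67 with WT marrow (0.521), 0.09 with KO marrow (0.971) and -1.29 in the mean (0.592), against 0.86 ± 0.97 in the mean without the block (0.54).

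The second Nfil3 probe, well above background on 12 arrays, separated treated from untreated mice of both marrows. It read -2.32, -2.06 and -3.67 in WT_untreated and -0.86, -0.72 and -0.81 in WT_AOMDSS mice. With KO marrow it read -3.62, -2.92 and -2.66 before and -1.04, -1.01 and -0.53 after treatment. The lowest treated value, -1.04, lies above the highest untreated value, -2.06.

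On this probe Nfil3 rose by 1.89 ± 0.43 with WT marrow (limma over all kept probes, adjusted p = 0.0219), by 2.21 ± 0.43 with KO marrow (0.0159) and by 2.05 ± 0.30 in the mean (0.00114). With slide as a block the changes were 1.22 (0.406), 2.09 (0.0335) and 1.65 (0.0852), and within slide 2 the difference with KO marrow was 2.26 (0.0545). Second probes were read for the 4 of the 9 genes with more than 1 kept probe, and their calls are not among the counts of the 9 genes above. In the authors' deposited table, which lists 2506 probes, the second Nfil3 probe had treatment differences of 1.91 and 2.22 and the brighter one -0.57 and 2.32. That table also listed the Arntl probe (1.36 and 1.17), the brighter Cry2 probe (-1.77 and -1.79) and the second Cry1 probe (1.52 and 1.51).

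**Figure D3:**
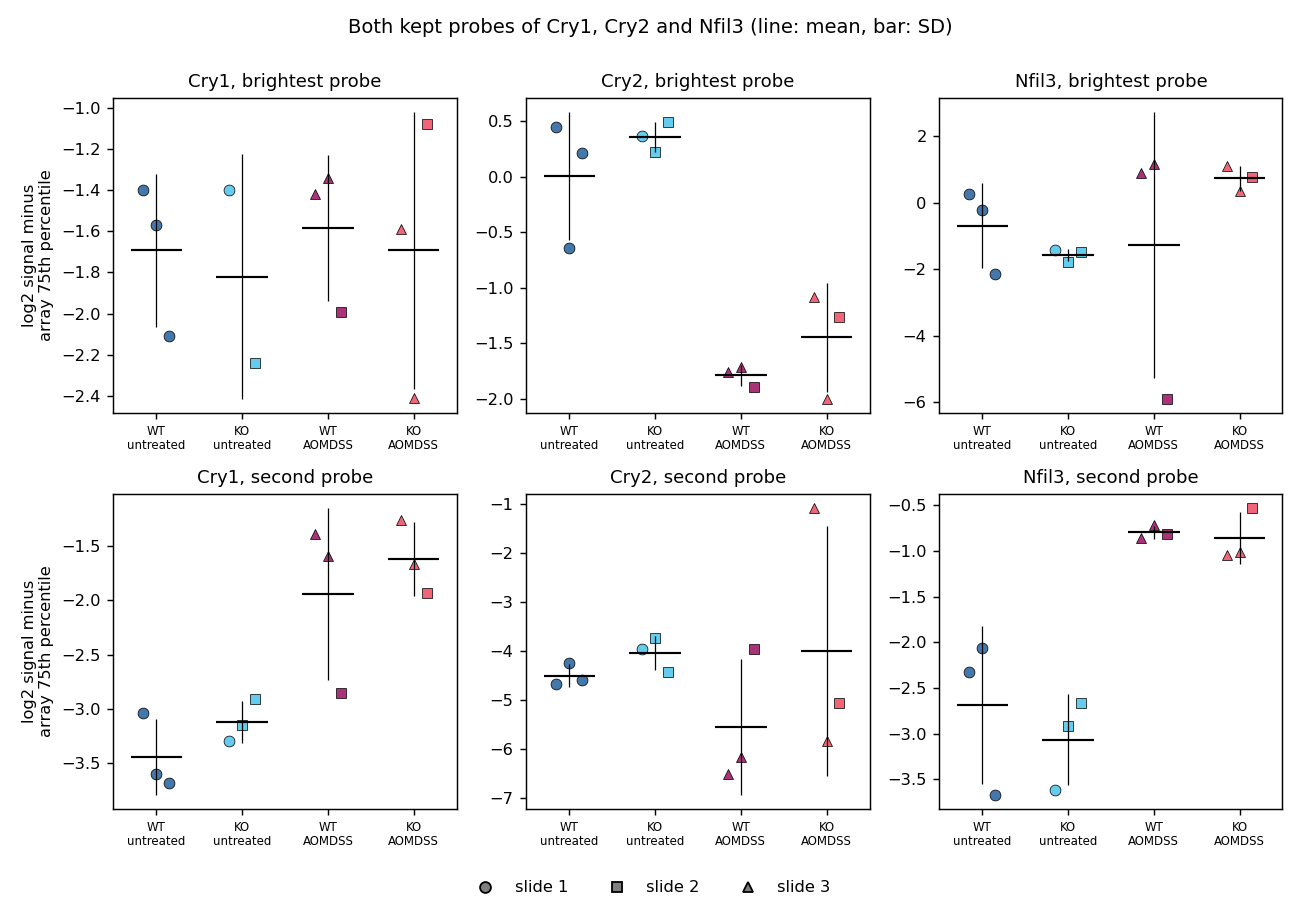
Levels (log2 signal minus the array's 75th percentile, y axis) of the brightest and the second kept probe of Cry1, Cry2 and Nfil3 by group, 1 point per mouse, with mean (line), SD (bar) and slide (symbol). The brighter Nfil3 probe has 1 WT_AOMDSS mouse at -5.90, whereas on the second probe the 6 treated mice lie between -1.04 and -0.53.

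Rora, a nuclear receptor that activates Arntl and Npas2 through the ROR element, was near background, with its brighter probe well above it on 7 of 12 arrays and a range of -6.44 to -3.79. Its treatment differences were 0.32 ± 0.73 and 0.81 ± 0.73 with WT and KO marrow (adjusted p = 0.792 and 0.688). Its other probe did not pass the filter. The intervals, -1.26 to 1.89 and -0.76 to 2.39, are too wide to tell a change of 2-fold from none. With slide as a block the sign turned, to -1.29 and -0.08 (adjusted p = 0.584 and 0.953), and no direction is given for Rora.

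Bhlhe40 and Bhlhe41 encode basic helix-loop-helix repressors that compete at E-boxes. Bhlhe40 was bright and close between groups: 1.87, 1.93 and 2.37 in WT_untreated, 2.24, 2.72 and 2.81 in WT_AOMDSS, 2.19, 2.47 and 2.78 in KO_untreated and 2.75, 2.56 and 3.09 in KO_AOMDSS mice. Its differences of 0.53 ± 0.26 and 0.32 ± 0.26 did not pass (adjusted p = 0.166 and 0.65), nor did those with slide as a block, 0.35 and 0.43 (0.679 and 0.333). Bhlhe41 was dim, well above background on 9 arrays. It read -3.51, -3.12 and -4.16 in WT_untreated and -7.29, -6.56 and -3.36 in WT_AOMDSS mice, a difference of -2.14 ± 0.91 (adjusted p = 0.123). The mouse at -3.36 is again the dimmest array, and without it the difference was -3.33 (adjusted p = 0.00512), and -2.09 (0.00555) in the mean over both marrows.

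With KO marrow Bhlhe41 read -3.78, -4.87 and -5.41 before and -6.43, -5.49 and -4.70 after treatment, a difference of -0.85 ± 0.91 (adjusted p = 0.744). With slide as a block the sign turned, to 0.83 with WT marrow and 1.21 with KO marrow (adjusted p = 0.705 and 0.285). A second probe was above background on 0 arrays. No direction is given for Bhlhe41.

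Counted by separation of the mice rather than by the test, 3 of the 9 genes (Arntl, Clock and Npas2) lay wholly above their untreated group with WT marrow, where 11% of all genes did, and 1 (Cry2) wholly below, where 21.8% did. With KO marrow 2 (Arntl and Nfil3) lay above, where 11.1% of all genes did, and 1 (Cry2) below, where 12.3% did. With 6 treated against 6 untreated mice, Arntl lay above (4.25% of all genes) and Cry2 below (3.84%). These shares of all genes are large enough that 1 or 2 separated genes of 9 are no result about the set. The 3 above with WT marrow were not tested as a set, and of them Arntl alone passed the limma test.

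The marrow donor made no difference that passed the test. Of all genes, 0% were called for KO against WT marrow in treated mice, 0% in untreated mice and 0% for the interaction, which asks whether the treatment effect differs between marrows; 189, 2902 and 799 genes had an unadjusted limma p under 0.05. For Cry2 the interaction was -0.01 ± 0.49, with a 95% interval of -1.06 to 1.04, and for Arntl it was -0.18 ± 0.44, with an interval of -1.12 to 0.77. Among the 9 genes the donor differences ran from -0.16 (Clock) to 2.03 (Nfil3) in treated and from -1.09 (Bhlhe41) to 0.47 (Arntl) in untreated mice. The 2.03 of Nfil3 rests on the value of -5.90, and on the second probe the donor difference in treated mice was -0.06 ± 0.43. Donor and treatment comparisons share their groups of mice and are not independent of each other. In untreated mice marrow and slide were also partly the same split, as only the first KO_untreated mouse shared slide 1 with WT_untreated. With slide as a block the donor difference there turned for Arntl (0.47 to -0.10), Npas2 (-0.13 to 0.06), Cry1 (-0.12 to 0.29) and Rora (0.29 to -0.42). It kept its sign for the other members. The 2902 genes were counted without that block.

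Of 30 other clock genes, also listed with earlier results of these data known, 27 were measured. With WT marrow 1 of the 27 rose and 8 fell, where 3.57% and 10.1% of all genes did. With KO marrow 0 rose and 8 fell, where 1.85% and 1.3% of all genes did. In the mean 1 rose and 11 fell, where 7.52% and 13.4% of all genes did. Their median changes were -0.7, -1.03 and -0.58. The genes that fell in the mean included those that the activating pair drives: the output factors Dbp (-5.91 ± 0.34, 60.1-fold lower) and Tef (-4.05 ± 0.41), the repressors Nr1d1 (-3.90 ± 0.38), Nr1d2 (-3.09 ± 0.24) and Ciart (-3.67 ± 0.33), and the period genes Per3 (-2.27 ± 0.42) and Per1 (-1.20 ± 0.25). Usp2, a deubiquitinase, changed by -2.11 ± 0.24, Cipc, an inhibitor of CLOCK, by -1.84 ± 0.21, the deadenylase Noct by -1.42 ± 0.30 and the cell cycle kinase Wee1 by -1.44 ± 0.36. The limma adjusted p of these 11 ran from 1.37e-06 for Dbp to 0.0165 for Wee1.

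On its brighter probe Cry2 (-1.80) thus stood among the clock genes that fell, next to Cipc in size, and not among the genes of the opposite phase. Its second probe did not pass (-0.50 in the mean, limma over all kept probes, adjusted p = 0.646). The listed gene that rose was Tspan4, a tetraspanin that is not part of the clock as described above (1.29 ± 0.26, limma adjusted p = 0.00577). Hlf, the third PAR bZIP factor, changed by -1.85 ± 0.69 and did not pass (adjusted p = 0.0702). In the fit with a block for slide, 8 of the 27 fell and 0 rose in the mean, where 2.1% and 4.1% of all genes did. Dbp (-5.14), Nr1d1 (-4.09), Nr1d2 (-3.13) and Tef (-3.33) were among them, each on its brightest probe, whereas Per3 (-1.12, limma adjusted p = 0.243) did not pass. In that same mean the difference of Arntl was 0.39. By marrow, that fit called 1 of the 27 with WT marrow, Dbp, which fell. With KO marrow it called 10, of which 9 fell and Tspan4 rose (1.68, adjusted p = 0.0475). The counts of all genes called per marrow with that block are in the last section, and they too were lower with WT marrow. The difference between 1 and 10 is therefore not read as a result about the clock genes.

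**Figure D4:**
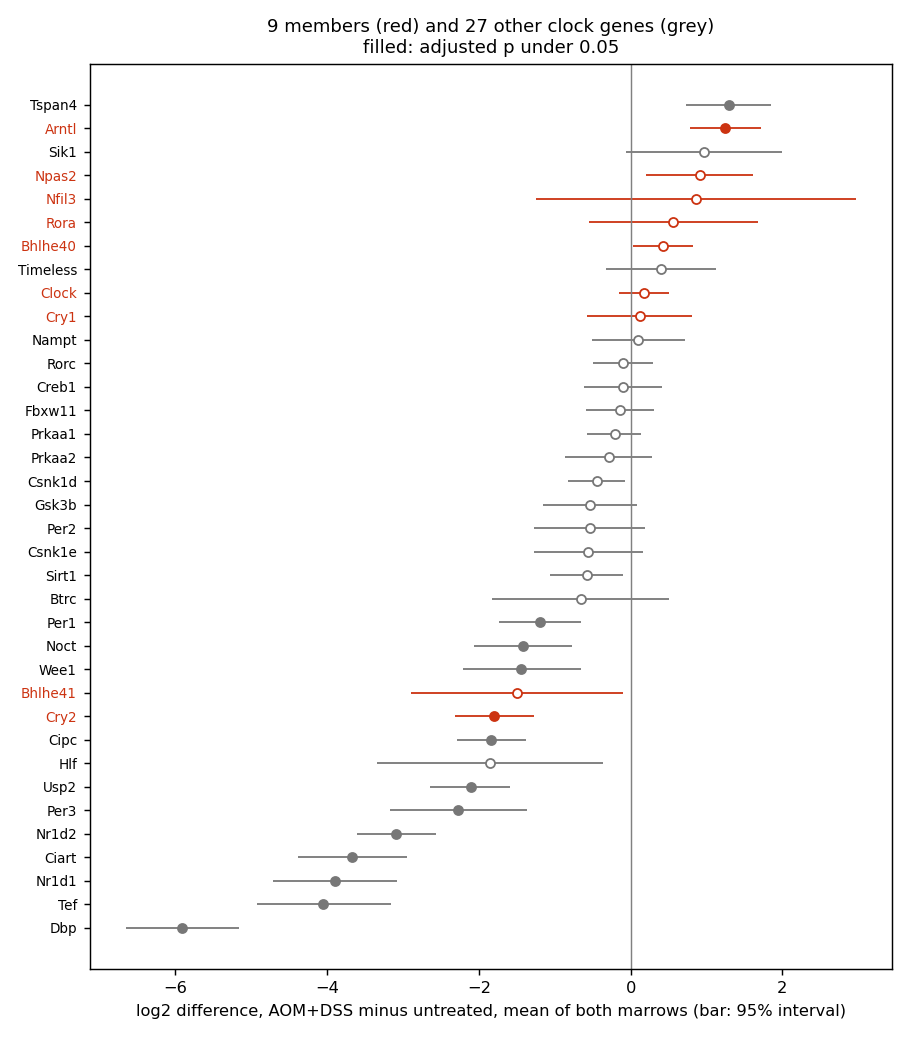
Treatment difference averaged over both marrows (log2, x axis) with its 95% interval for the 9 genes (red) and the 27 other measured clock genes (grey), sorted by size; filled points passed the threshold of 0.05 on the adjusted p. Arntl at 1.25 is near the top, Cry2 at -1.80 lies beside Cipc among the genes that fell, and Dbp at -5.91 is lowest.

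Differences between genes within an array do not depend on the array's scaling. The level of an array's Arntl probe minus its Nr1d1 probe lay between -0.34 and 0.17 in the 6 untreated mice and between 3.15 and 6.41 in the 6 treated mice. Since the probes are different, only the shift between mice carries meaning, which was 4.45 with WT marrow and 5.85 with KO marrow. Against Dbp, Arntl shifted by 7.02 and 7.30. Most of both shifts came from the fall of Nr1d1 and Dbp, as their own differences show. Within slide 2, Arntl minus Nr1d1 was -0.13 and -0.34 in untreated and 3.15 and 5.39 in treated mice, so the groups were apart there on these probes. Nr1d1 was read on its brightest probe alone. Its other kept probes had lower group means in treated mice with both marrows, but showed no such fall within slide 2. There they read -2.19 and -2.28 untreated against 0.24 and -2.09 treated, and -2.23 and -2.69 against -1.37 and -2.51.

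Arntl minus Clock was -2.72 to -1.53 in untreated and -1.97 to -0.53 in treated mice, and these ranges overlapped. Cry1 minus Cry2, on the brighter probes, was -2.72 to -0.93 in the 5 untreated mice with a value and -0.51 to 0.37 in the 6 treated mice. These ranges did not overlap, but they were read on the brighter probes alone. The second probes of both genes behaved otherwise than the brighter ones, and differences that use them were not formed.

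**Figure D5:**
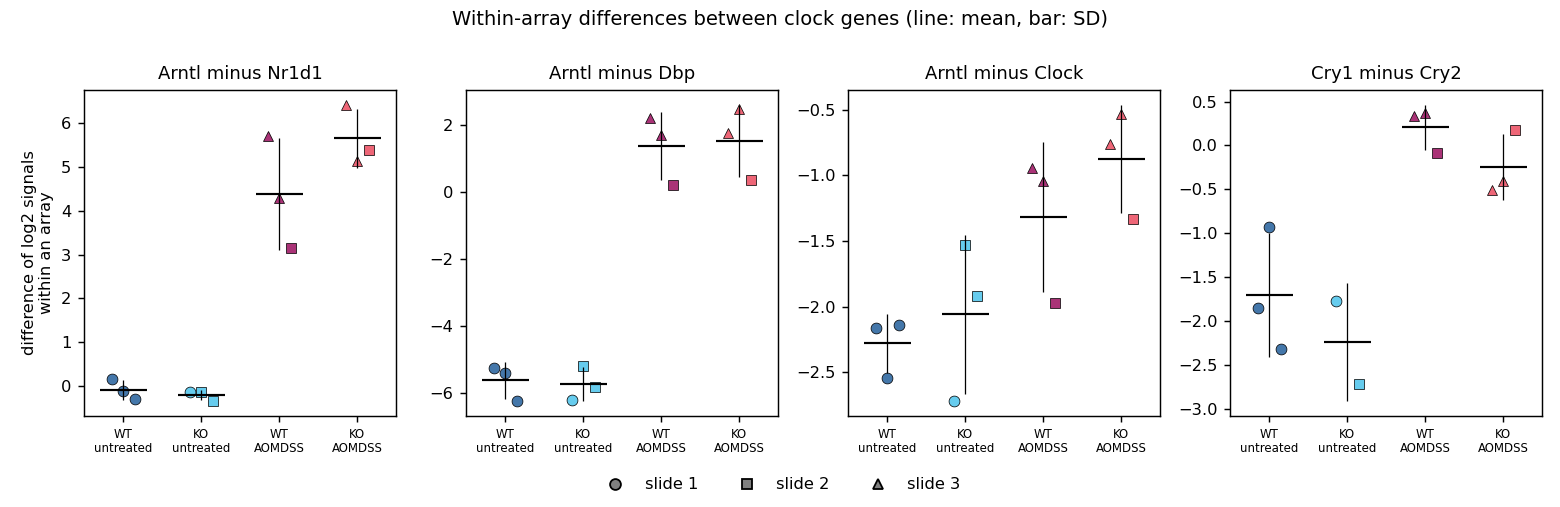
Difference of log2 signals within an array (y axis) for Arntl minus Nr1d1, Arntl minus Dbp, Arntl minus Clock and Cry1 minus Cry2 by group, 1 point per mouse, with mean (line), SD (bar) and slide (symbol); only shifts between groups carry meaning, since the probes differ. Treated and untreated mice are apart in 3 of the 4 panels and overlap for Arntl minus Clock.

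The makeup of the tissue moved with treatment. Neutrophil markers rose in 6 of 9 measured genes with each marrow, and their mean level was -6.60 to -4.71 in untreated and -2.44 to 0.16 in treated mice. Macrophage markers rose in 7 and 6 of 9, with mean levels of -2.92 to -1.38 and -0.43 to 0.04. The shares of all genes that rose were 3.57% and 1.85%. Fibroblast markers rose in 2 and 3 of 8 with WT and KO marrow and in 6 of 8 in the mean, and B and plasma cell markers in 1 and 1 of 8 and in 4 of 8. The fibroblast levels were -3.38 to -0.94 in untreated and -1.91 to 0.03 in treated mice, which overlap. Smooth muscle markers did not pass, and they stood at 2.82 in the second WT_AOMDSS mouse against -1.92 to 0.77 elsewhere. Colonocyte markers fell in 6 and 4 of 10 (10.1% and 1.3% of all genes fell), from 4.73 to 5.19 in untreated to 2.69 to 4.12 in treated mice. In whole mucosa, fewer cells of a type and less RNA per cell cannot be told apart, and the part of these shifts in the values of Arntl, Cry2 and Nfil3 was not tested. The second WT_untreated mouse, which had the lowest Arntl (-0.50) and Cry2 (-0.64) of its group, also had the highest adipocyte markers of all arrays (2.29, against -4.20 to -1.02 elsewhere).

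The genes most like a member over the 12 arrays were taken by the root mean square (RMS) difference of their mean-centred log2 levels, among 13485 named genes with no missing value. For Arntl they were Sh3bp4, Tnip2 and Tmem181a (RMS 0.21 each), Epb41l2 (0.22) and Alcam (0.24), where Arntl's own RMS about its mean was 0.72 and the median over all genes 0.97. For Npas2 they were Unc13d (0.22), Pigm (0.25), Manf, Hdhd5 and Zfp710 (0.27 each). For the brighter Nfil3 probe they were Nfkbiz (0.85), Csf2ra (0.90), Sptssb and Ak4 (0.95 each) and Phf13 (1.03), a looser likeness against Nfil3's own RMS of 1.94. That profile includes the value of -5.90 on the dimmest array, where the probe was not well above background. The second Nfil3 probe read -0.81 on that array, and genes like it were not sought. None of these neighbours was among the 27 clock genes. For Cry1 no such genes are named, because its brighter probe lacks a value on 1 array. The likeness holds over mice that share slides and treatment.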

How the data were processed

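The authors deposited scanner files of 12 single-colour Agilent arrays (design 014868), read with Agilent Feature Extraction 10.7.3.1, whose values are background-corrected linear intensities per spot, per the file headers. The authors deposited a table of group means of 2506 probes as log2 values as well. Its column medians were 0.053, -0.178, 0.111 and 0.11, in the order WT_untreated, KO_untreated, WT_AOMDSS and KO_AOMDSS. Its treatment differences correlated at 0.998 with those computed here, and no label or header states how its probes were picked.

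The log2 intensity minus the array's 75th percentile was used, without control spots and with flagged spots missing. Accessions were matched to RefSeq symbols (GRCm38.p6, names only): 24375 of 41174 probes had one. A probe was kept if well above background on the 3 arrays of at least 1 group with at least 2 values in every group (29949 probes), and the brightest kept probe stood for its gene (23614 genes). A 4-group model was fitted in R 4.3.3 with limma 3.58.1 (8 residual and 4.9 prior degrees of freedom, Benjamini-Hochberg over all genes) and tested on simulated data.

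Normexp used median signals, since the mean-signal column planned is not in the files analysed. The 9 genes and all gene lists were chosen with earlier results of these data known. All 9 are named, with their other probes, and other clock genes where called or, if called in none, at least 2-fold on average. Clock genes withheld from reporting were left out of that list and are not reported here. In treated mice, same-numbered WT-marrow and KO-marrow mice shared a slide and deviated from their group means together (correlations of 0.419, 0.309 and 0.513). The first and second mouse of each treated group lay on slide 3 and the third on slide 2, and mice of unlike numbers were not compared. Whether number or slide links these mice was not tested. Alternatives were scaling, background, filter, probe choice, batch blocks, weights and leaving out each array. That these mice were separate animals comes from the labels; the number of arrays limits precision.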

Additional observations from a re-analysis of the deposited data

How the results depend on the processing

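The number of the 9 genes called depended on several settings, and where no value is given the cause was not tested. With WT marrow (2 called) it was 0 with normexp background correction, 1 with the mean of a gene's kept probes, 0 with slide as a block, 4 with array weights, 1 with only the groups compared and 1 with scan day as a block (added after seeing the data); leaving out 1 array gave 0 to 4. With KO marrow (1 called) it was 2 with probes above background on all arrays, 0 with the mean of kept probes, 4 with array weights, 2 with only the groups compared and 0 within slide 2, where 1 treated mouse stands against 2; leaving out 1 array gave 0 to 3. In the mean (2 called) it was 0 with slide as a block and 5 with array weights, and 2 to 5 with 1 array left out, the 5 without the dim array WT_AOMDSS 3. For KO against WT marrow (0 called) it was 1 within slide 2 in treated mice (Nfil3, resting on the value of -5.90) and 4 with array weights in untreated mice, and the interaction had 1 with array weights. Array weights ran from 0.13 to 3.6 and called 54%, 22.2% and 55.7% of all genes for treatment with WT marrow, KO marrow and their mean. For the donor comparisons and the interaction with array weights, and for the arrays left out, the shares of all genes called are not given here. Those counts show how the calls depend on the settings and are no result about the 9 genes.

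The sign turned for Nfil3 with WT marrow, to 1.89 on its second probe, which is also the probe used when all arrays must be above background; leaving out 1 array gave -1.81 to 1.72. It turned for Cry2 with KO marrow on its second probe (0.05). Genes not called before the turn changed sign too: with WT marrow, KO marrow and in the mean, Clock did so in 1, 6 and 1 alternatives, Cry1 in 2, 2 and 2, Rora in 3, 1 and 1 and Bhlhe41 in 2, 4 and 3, and Nfil3 did so in 2 in the mean (-1.29 with slide and -1.43 with scan day as a block). Arntl stayed positive in the 24, 25 and 23 alternatives run for WT marrow, KO marrow and their mean, and was called in 16, 2 and 22. Cry2 was called in 19, 19 and 20.

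Over all genes, 3239 were called with WT marrow, but 835 with normexp, 128 with slide as a block, 1929 with probes above background on all arrays and 1320 with only the groups compared. With KO marrow 744 were called, but 1721 with slide as a block and 1303 with scan day as a block. In the mean 4942 were called, but 2327 with normexp and 1463 with slide as a block. The median change of all genes with WT marrow was -0.244, but -0.043 with quantile normalization and 0.397 with normexp. Relative to it Arntl was 1.58, 1.39 and 0.50, and Cry2 -1.55, -1.71 and -0.85. For the treatment comparisons replicate numbers do not pair the mice (the deviations of same-numbered mice from their group means within a marrow correlated at -0.384 to 0.207). For the donor comparison in untreated mice these correlations were 0.427, -0.137 and 0.414, and no pairing was assumed. A replicate block left 2 and 1 of the 9 called with WT and KO marrow and gave 3 in the mean, adding Npas2 (adjusted p = 0.0407); all genes called were 2312 and 710. It changed no call for KO against WT marrow in treated mice, the comparison in which same-numbered mice shared a slide.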
